A study of Mus musculus with 8 samples.

Results

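Errfi1 and 9 further genes of EGF receptor signalling were followed in the livers of 8 male C57BL/6 mice, in 10 of the 43629 genes with values in the deposited table. The 10 were taken by gene name: the receptors Egfr, Erbb2 and Erbb3, the ligands Tgfa and Hbegf, and the feedback inhibitors Errfi1, Lrig1, Spry2, Spry4 and Dusp6. They were chosen by name and pathway, but selected on the measured FPKM of these mice too, since the difference between the 2 groups, with Errfi1 among the transcripts that differed most, was already known. Their values in this comparison are therefore a description, with no test of their own; where q-values from the authors' deposited table are quoted, they are not independent of that choice. Mice were 7 to 8 weeks old. The 4 antagomiR-122 mice received 5 µg of an antagomiR, a chemically modified antisense oligonucleotide, against miR-122 into the tail vein. The 4 antagomiR-control mice received 5 µg of a control antagomiR. At 48 h all 8 mice, controls included, also had a subcutaneous dose of CL316243 (1 mg/kg), and livers were taken 2 h after it. CL316243 is an agonist of the β3-adrenergic receptor, which is found mainly on fat cells and triggers the release of fatty acids. Mice without CL316243 were not analysed here, so every value below is a level under β3-adrenergic stimulation. RNA came from whole liver, 1 library per mouse.

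EGF receptors are tyrosine kinases of the cell surface that pair up when a ligand binds and then pass the signal through the adaptor GRB2, RAS and the ERK kinases, and through PI3K and STAT factors. Hepatocytes carry many EGF receptors and use them in growth and regeneration. The signal switches on its own brakes: ERRFI1 (also called MIG6 or RALT) binds the kinase domain of the active receptor and promotes its removal from the surface, LRIG1 is a membrane protein that promotes receptor degradation, sprouty proteins dampen the path from receptor to ERK, and DUSP6 removes the phosphates from ERK. In rodents Errfi1 was first described as a liver transcript induced by insulin and glucocorticoids.

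Among the 8 libraries, antagomiR-122 replicate 4 stood apart. Its depth, estimated from the steps between low FPKM values (RNA fragments scaled by transcript length and by library) with a median of 1, was 2.36, against at least 0.89 and at most 1.12 in the other 7 libraries, and its summed FPKM was 541058, against 623513 to 701285. Hepatocyte markers were abundant: the 9 hepatocyte markers found in the table summed to 17555 to 20989 FPKM with antagomiR-122 and 18112 to 21968 FPKM in controls. Alb, albumin, is listed at 0 in all 8 libraries. Cholangiocyte markers summed to 31.8 to 35.6 FPKM with antagomiR-122 and 34.7 to 44.8 FPKM in controls, where 1 of 3 tested, Spp1, was lower in every antagomiR-122 mouse. Of all 11131 tested genes, those averaging 1 FPKM or more, 2.14% were lower in every antagomiR-122 mouse than in any control. Kupffer cell and macrophage markers (244.6 to 306 and 237 to 327 FPKM), endothelial markers (108 to 135 and 117 to 126 FPKM) and stellate cell and fibroblast markers (108 to 203 and 147 to 206 FPKM) overlapped between the antagomiR-122 and control groups, though 1 of 8 tested stellate and fibroblast genes was lower in every antagomiR-122 mouse, namely Lrat (beside the same 2.14%). So did T, B and NK cell markers (2.97 to 5.76 and 3.74 to 5.23 FPKM), neutrophil markers (7.33 to 14.3 and 9.91 to 28.2 FPKM), adipocyte markers (0.985 to 2.02 and 0.929 to 1.67 FPKM) and mesothelial markers (59.5 to 79.0 and 57.8 to 72.7 FPKM). All 4 tested neutrophil markers were nonetheless lower on average, with a median log2 fold change of -0.52 and ratios of 0.546 for S100a8 and 0.574 for S100a9. Also lower on average were 7 of 8 tested endothelial markers (median -0.11) and 7 of 8 stellate and fibroblast markers (-0.15). Of the Kupffer cell and macrophage markers 6 of 8 were lower (-0.04), and of the hepatocyte markers 5 of 9 (-0.01). The median was -0.27 for the 3 tested cholangiocyte markers and 0.01 over all tested genes. Nearly all of the mesothelial sum was Krt8, at 59.4 to 75.4 FPKM with antagomiR-122 and 56.9 to 70.7 FPKM in controls. Upk3b was uneven, at 2.22, 0.192, 1.75 and 0.0879 FPKM in antagomiR-122 replicates 1 to 4, and 0.197 to 0.952 FPKM in controls. Msln stood at 1.21, 0.132, 1.59 and 0.0206 FPKM in the same antagomiR-122 mice, and 0.157 to 0.907 FPKM in controls. Col3a1 and Col1a1, on the stellate and fibroblast list, were uneven too. Col3a1 stood at 89.7, 11.1, 77.9 and 16.1 FPKM in these antagomiR-122 mice, and 19.1 to 81.2 FPKM in controls. Col1a1 stood at 14.6, 0.885, 9.46 and 1.93 FPKM in them, and 2.27 to 11.5 FPKM in controls.

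Errfi1 was lower in every mouse given antagomiR-122 than in any control mouse. The gene lies on chromosome 4, 150853919 to 150868892, plus strand, in GRCm38, with 3 annotated transcripts. Its level was 312, 337, 346 and 384 FPKM in antagomiR-122 replicates 1 to 4, and 495, 512, 517 and 471 FPKM in antagomiR-control replicates 1 to 4. The groups were 87.3 FPKM apart at their nearest values, and the 4 control mice lay closer together than the 4 treated ones. Means were 345 ± 29.6 FPKM with antagomiR-122 and 499 ± 20.8 FPKM in controls (SD, n = 4 each), a ratio of 0.691, and the log2 fold change on log2(FPKM + 1) was -0.53 ± 0.08 (SE). Errfi1 was an abundant transcript, at rank 171 of the 11131 genes that averaged 1 FPKM or more. Of the 170 transcripts above it, 4 had groups that did not overlap, 1 of them lower with antagomiR-122, beside 4.52% of all tested genes. A log2 fold change further below 0 than that of Errfi1 was found in 9 of the 170. Errfi1 was chosen with its difference known, so its place among them is a description and no support. In bulk liver, fewer cells of a type and less RNA per cell cannot be told apart. The part that the lower cholangiocyte marker Spp1, the lower neutrophil markers, the lower stellate marker Lrat or the deeper antagomiR-122 replicate 4 plays in these values was not tested. Nor was that of the mostly lower endothelial, stellate and fibroblast markers, or of the uneven markers Upk3b, Msln, Col3a1 and Col1a1. Without antagomiR-122 replicate 4 the Errfi1 ratio was 0.665, and over the 8 mice left out in turn it stayed between 0.665 and 0.713. The antisense gene 1700045H11Rik overlaps the 5′ end of Errfi1 at a mean of 0.309 FPKM with antagomiR-122 and 0.709 FPKM in controls.

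No gene passed limma's threshold in this comparison. With Benjamini-Hochberg adjustment over the 11131 tested genes, limma gave 0 genes at an adjusted p under 0.05, with a smallest adjusted p of 0.251. Without adjustment 828 genes (7.44%) were under 0.05, of which 419 were higher and 409 lower. The words higher and lower below therefore describe these 8 mice. In 3 of the 7 genes of the set that reached a mean of 1 FPKM the groups did not overlap, against 4.52% of all tested genes (2.38% higher and 2.14% lower with antagomiR-122). Since the set was proposed on this contrast, nothing is read from that share. Erbb2, Hbegf and Spry2 stayed under 1 FPKM and were not in the fit.

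The windows around the transcription start (250 bases before to 50 after, RefSeq, GRCm38.p6) are shown for Errfi1, whose values the results turn on, and for Egfr, Lrig1 and Dusp6, a receptor and 2 further inhibitors to compare with it. They run 5′ to 3′ on the gene's strand. Capitals mark matches on either strand to any of 6 motifs. A cAMP response element was searched as TGACGTCA and an AP-1 site as TGANTCA. The letters TATAAA stood for the box that places the start in many genes, which is called the TATA box. The box bound by the factor NF-Y was searched as CCAAT. A GC box, bound by SP1, was searched as GGGCGG, and an E-box of the kind bound by MYC and clock factors as CACGTG; a match on the other strand shows as the reverse complement.
Errfi1, chr4:150854820-150855119, plus strand: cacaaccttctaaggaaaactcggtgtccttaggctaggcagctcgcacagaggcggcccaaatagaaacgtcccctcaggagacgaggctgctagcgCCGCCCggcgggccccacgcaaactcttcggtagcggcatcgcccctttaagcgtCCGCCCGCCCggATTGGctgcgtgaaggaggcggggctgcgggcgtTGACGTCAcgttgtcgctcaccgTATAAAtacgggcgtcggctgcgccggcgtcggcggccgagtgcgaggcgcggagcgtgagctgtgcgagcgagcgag
Egfr, chr11:16751953-16752252, plus strand: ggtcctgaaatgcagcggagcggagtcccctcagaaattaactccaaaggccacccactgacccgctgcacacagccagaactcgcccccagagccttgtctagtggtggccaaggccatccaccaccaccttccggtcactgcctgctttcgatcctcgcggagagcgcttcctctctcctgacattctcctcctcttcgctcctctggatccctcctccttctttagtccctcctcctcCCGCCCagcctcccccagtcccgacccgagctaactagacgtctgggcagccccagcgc
Lrig1, chr6:94700096-94700395, minus strand: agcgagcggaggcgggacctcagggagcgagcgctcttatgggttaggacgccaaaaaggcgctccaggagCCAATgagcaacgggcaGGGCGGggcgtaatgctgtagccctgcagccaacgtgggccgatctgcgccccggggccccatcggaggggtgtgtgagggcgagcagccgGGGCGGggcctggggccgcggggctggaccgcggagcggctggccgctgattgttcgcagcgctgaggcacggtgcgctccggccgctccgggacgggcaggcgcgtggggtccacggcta
Dusp6, chr10:99262981-99263280, plus strand: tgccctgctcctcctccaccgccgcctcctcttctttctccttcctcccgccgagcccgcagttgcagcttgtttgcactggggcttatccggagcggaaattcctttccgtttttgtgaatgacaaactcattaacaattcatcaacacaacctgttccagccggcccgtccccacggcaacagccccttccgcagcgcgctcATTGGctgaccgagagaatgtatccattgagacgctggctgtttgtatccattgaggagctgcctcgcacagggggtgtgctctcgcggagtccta
The Errfi1 window holds 1 full cAMP response element at -51 and 1 TATA box at -28, counted from the start at 0. It also holds 1 CCAAT box and 3 GC boxes, a pair of which share 2 bases. Of 32851 RefSeq windows of this length, 1.79% hold the cAMP response element, 13.6% the TATA box, 37.4% a CCAAT box and 35.7% a GC box. Egfr holds 1 GC box, Lrig1 1 CCAAT box and 2 GC boxes, and Dusp6 1 CCAAT box. AP-1 sites (7.81% of all windows) and E-boxes (7.15%) were found in none of these 4 windows. A second, upstream Errfi1 start in RefSeq (chr4:150853546-150853845) holds none of the 6 motifs and has a GC content of 42.0%, against 66.7% in the window shown. Windows were found for 7 of the 10 genes. A match is a sequence of letters and does not show that a factor binds there.

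**Figure D1:**
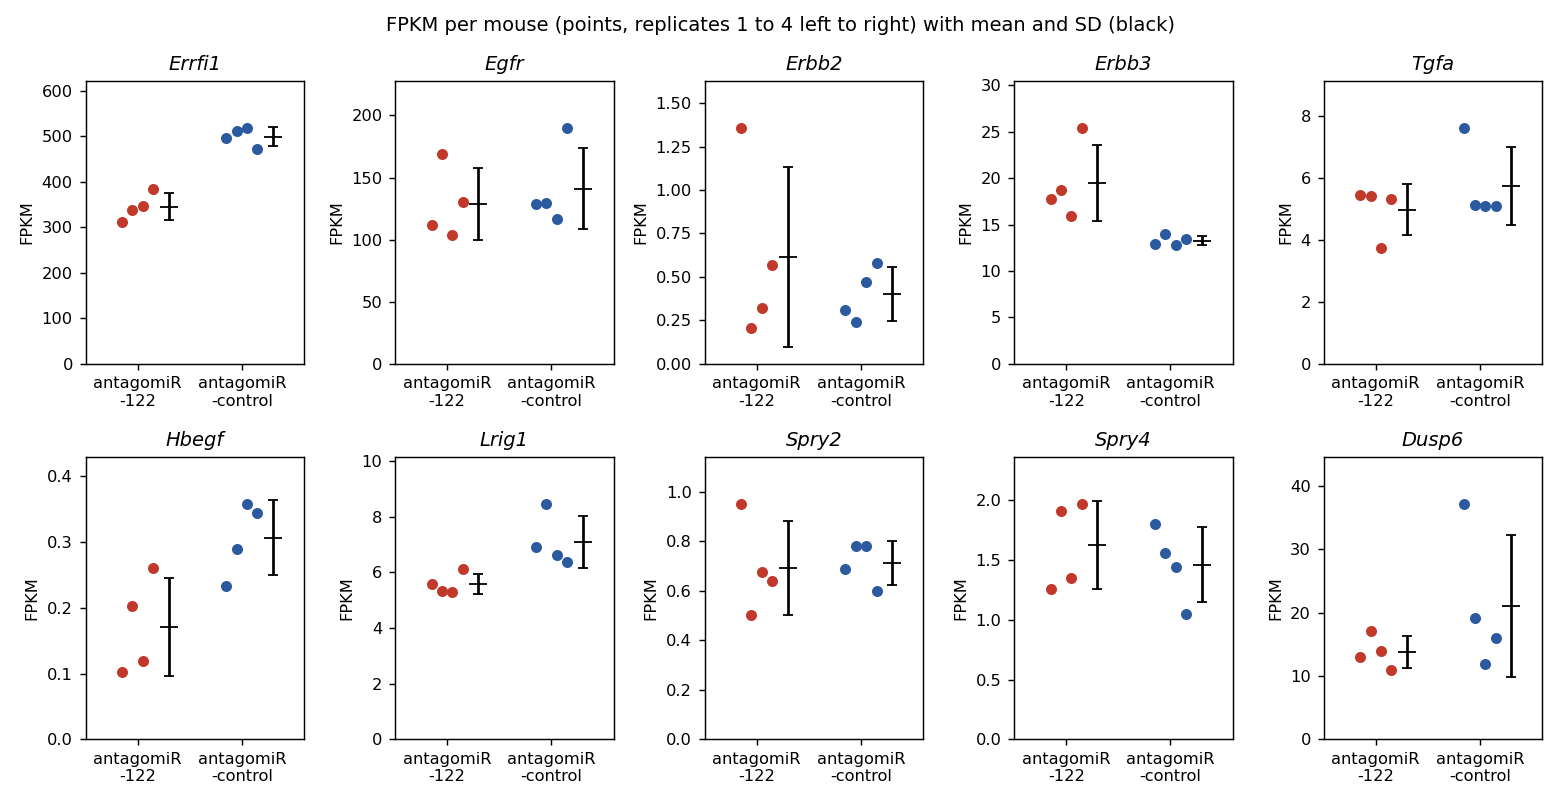
FPKM of the 10 genes in each mouse, with antagomiR-122 in red on the left and antagomiR-control in blue on the right of each panel; points are single mice and black marks are the mean and SD of 4. Errfi1 (312 to 384 FPKM against 471 to 517 FPKM) and Lrig1 lie lower and Erbb3 higher in all 4 antagomiR-122 mice, while the groups overlap in the other 7 panels.

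The 3 receptors differed widely in level, and only Erbb3 separated the groups. Egfr (chromosome 11, 16752203 to 16918158, plus strand), the receptor of EGF and TGF-alpha, was by far the most abundant. It stood at 112, 169, 104 and 130.3 FPKM in antagomiR-122 replicates 1 to 4, and at 129, 129.8, 117 and 189.8 FPKM in antagomiR-control replicates 1 to 4. The groups overlapped, with the highest mouse of each group far above its 3 companions. Means were 129 ± 29.0 FPKM with antagomiR-122 and 141 ± 32.96 FPKM in controls (SD, n = 4 each), a ratio of 0.912. The sign rests on single mice: without antagomiR-control replicate 4 the ratio was 1.03.

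Erbb3 (chromosome 10, 128567523 to 128589652, minus strand, 1 transcript) codes for a receptor with little kinase activity of its own, which signals by pairing with EGFR or ERBB2 and recruits PI3K. Its level was 17.8, 18.7, 16.0 and 25.4 FPKM in antagomiR-122 replicates 1 to 4, and 12.95, 13.9, 12.8 and 13.4 FPKM in antagomiR-control replicates 1 to 4. All 4 antagomiR-122 mice were above all 4 controls, and the controls were within a narrow range. Means were 19.5 ± 4.11 FPKM with antagomiR-122 and 13.3 ± 0.529 FPKM in controls (SD, n = 4 each), a ratio of 1.47 and a log2 fold change of 0.50 ± 0.13 (SE). The highest value came from the deeper antagomiR-122 replicate 4, without which the ratio was 1.32 with the groups still apart. In the authors' deposited table Erbb3 was called significant, with q = 0.00526, and Errfi1 was not, with q = 0.0783.

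Erbb2 (chromosome 11, 98412470 to 98437716, plus strand), a receptor with no known ligand of its own and the usual partner of ERBB3, was scarce. Its level was 1.36, 0.208, 0.321 and 0.568 FPKM in antagomiR-122 replicates 1 to 4, and 0.309, 0.243, 0.473 and 0.579 FPKM in antagomiR-control replicates 1 to 4. The groups overlapped, and a single antagomiR-122 mouse, replicate 1, lay above all others. The ratio of means was 1.53 with all mice and 0.911 without that mouse, so its direction rests on it. The last bases of Erbb2 overlap Mien1 on the other strand, at a mean of 35.8 FPKM with antagomiR-122 and 34.9 FPKM in controls, so reads at that end could be counted for either gene if strand was not used. Erbb4, the remaining receptor of the family, averaged 0.577 ± 0.213 FPKM with antagomiR-122 and 0.508 ± 0.0854 FPKM in controls (SD, n = 4 each), with overlapping groups.

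The ratio of Errfi1 to Erbb3 within a mouse separated the groups, and that of Errfi1 to Egfr did not. The ratio of Errfi1 to Erbb3 FPKM was 17.6, 18.01, 21.7 and 15.1 in antagomiR-122 replicates 1 to 4, and 38.2, 36.7, 40.6 and 35.0 in antagomiR-control replicates 1 to 4. Its mean was 18.1 ± 2.70 with antagomiR-122 and 37.6 ± 2.35 in controls (SD, n = 4 each). The ratio of Errfi1 to Egfr averaged 2.77 ± 0.558 with antagomiR-122 and 3.68 ± 0.839 in controls, with overlapping groups. The ratio of Erbb3 to Egfr averaged 0.155 ± 0.0344 with antagomiR-122 and 0.0971 ± 0.0179 in controls, and its groups did not overlap. They nearly touched, at 0.1108 in antagomiR-122 replicate 2 and 0.1094 in antagomiR-control replicate 3. These ratios restate values that chose the set and are a description.

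**Figure D2:**
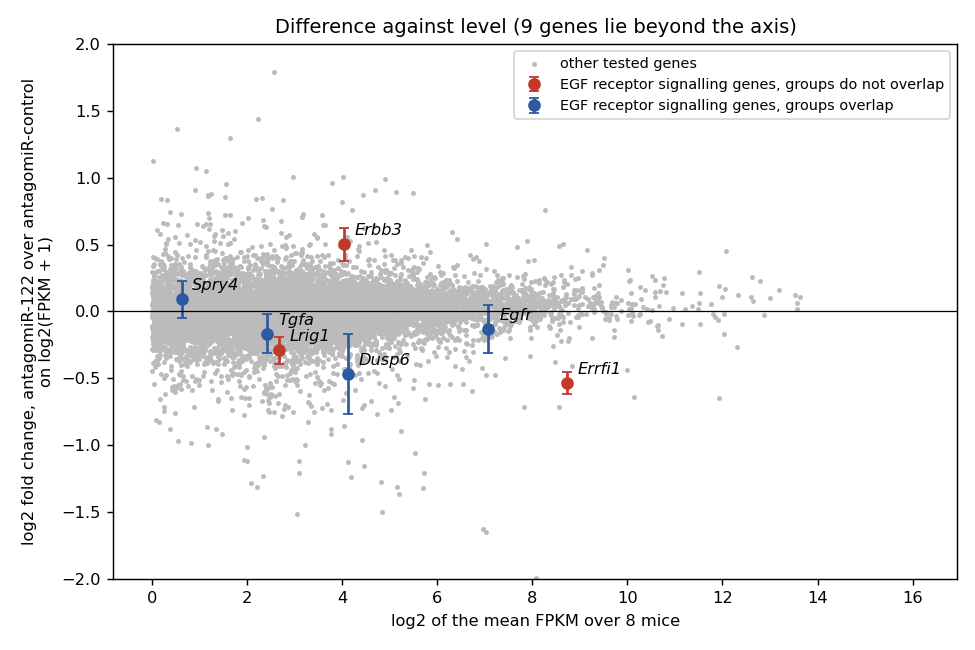
Log2 fold change (antagomiR-122 over antagomiR-control, on log2(FPKM + 1)) against the log2 of the mean FPKM over 8 mice for the 11131 tested genes in grey, with the 7 tested genes of the set and their SE in colour; 9 genes lie beyond the vertical axis. Errfi1 lies at -0.53 at the high end of expression, Erbb3 at 0.50 and Lrig1 at -0.29, in red because their groups did not overlap.

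The ligands were at low levels. Tgfa (chromosome 6, 86195251 to 86275639, plus strand), the EGFR ligand TGF-alpha, stood at 5.44, 5.43, 3.73 and 5.33 FPKM in antagomiR-122 replicates 1 to 4, and at 7.62, 5.13, 5.11 and 5.10 FPKM in antagomiR-control replicates 1 to 4. The groups overlapped, and 6 of the 8 mice lay between 5.10 and 5.44 FPKM. Means were 4.98 ± 0.836 FPKM with antagomiR-122 and 5.74 ± 1.25 FPKM in controls (SD, n = 4 each). Without antagomiR-control replicate 1 the ratio of means was 0.975, against 0.868 with all mice.

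Hbegf (chromosome 18, 36504929 to 36515805, minus strand) codes for heparin-binding EGF-like growth factor, a ligand of EGFR and ERBB4. Its level was 0.102, 0.203, 0.119 and 0.260 FPKM in antagomiR-122 replicates 1 to 4, and 0.233, 0.289, 0.357 and 0.344 FPKM in antagomiR-control replicates 1 to 4. Only antagomiR-122 replicate 4 reached the control range. These levels correspond to an estimated 5 to 34 fragments per library with antagomiR-122 and 12 to 19 in controls, so counting error alone is large. Means were 0.171 ± 0.0739 FPKM with antagomiR-122 and 0.306 ± 0.0569 FPKM in controls (SD, n = 4 each), a ratio of 0.559, and Cuffdiff did not test the gene.

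Of the other EGF family ligands, 2 of 9 reached 1 FPKM. Nrg4, a neuregulin that binds ERBB4, was the most abundant ligand transcript, at 23.4, 18.5, 27.4 and 13.2 FPKM in antagomiR-122 replicates 1 to 4, and at 9.25, 18.2, 12.6 and 14.4 FPKM in antagomiR-control replicates 1 to 4. All antagomiR-122 mice except the deeper replicate 4 were above every control. Means were 20.6 ± 6.14 FPKM with antagomiR-122 and 13.6 ± 3.71 FPKM in controls (limma adjusted p = 0.659). Btc, betacellulin, averaged 1.07 ± 0.147 FPKM with antagomiR-122 and 1.42 ± 0.210 FPKM in controls (SD, n = 4 each), with overlapping groups (limma adjusted p = 0.672). Egf, Areg, Ereg, Epgn, Nrg1, Nrg2 and Nrg3 stayed below 1 FPKM. Among them Ereg, epiregulin, averaged 0.0816 ± 0.0390 FPKM with antagomiR-122 and 0.227 ± 0.0951 FPKM in controls, and Nrg1 averaged 0.112 ± 0.0356 FPKM and 0.223 ± 0.0872 FPKM (SD, n = 4 each). Ereg and Nrg1 were picked after their values were seen. Egf, Nrg2 and Nrg3 averaged higher with antagomiR-122, and Areg and Epgn lower. Counting error is large for such values, since 1 fragment on a 2-kb transcript is worth about 0.021 FPKM at median depth.

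Among the feedback inhibitors other than Errfi1, Lrig1 was lower without overlap and the sprouty genes were not. Lrig1 (chromosome 6, 94604529 to 94700158, minus strand) stood at 5.58, 5.34, 5.31 and 6.11 FPKM in antagomiR-122 replicates 1 to 4, and at 6.90, 8.47, 6.64 and 6.38 FPKM in antagomiR-control replicates 1 to 4. The groups were only 0.269 FPKM apart at their nearest values. Means were 5.59 ± 0.372 FPKM with antagomiR-122 and 7.10 ± 0.937 FPKM in controls (SD, n = 4 each), a ratio of 0.787 and a log2 fold change of -0.29 ± 0.10 (SE). Leaving out each mouse in turn gave ratios from 0.762 to 0.841. The 3′ end of Lrig1 overlaps Slc25a26 on the other strand, which averaged 3.27 FPKM with antagomiR-122 and 3.22 FPKM in controls.

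Dusp6 (chromosome 10, 99263231 to 99267488, plus strand) had the widest spread relative to its mean of the set in controls. Its level was 13.1, 17.1, 13.9 and 11.002 FPKM in antagomiR-122 replicates 1 to 4, and 37.1, 19.1, 11.9 and 16.0 FPKM in antagomiR-control replicates 1 to 4. The groups overlapped, and the difference of the means was carried by antagomiR-control replicate 1. Means were 13.8 ± 2.54 FPKM with antagomiR-122 and 21.0 ± 11.1 FPKM in controls (SD, n = 4 each), a ratio of 0.654. Without that mouse the ratio was 0.878. The authors' deposited table called Dusp6 significant, with q = 0.00526, although its SD in controls was 52.9% of the mean, against 3.99% for Erbb3. Cuffdiff gave Dusp6 and Erbb3 the same p, 5e-05, and so the same q.

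Spry2 (chromosome 14, 105891949 to 105896819, minus strand) stood at 0.952, 0.502, 0.677 and 0.639 FPKM in antagomiR-122 replicates 1 to 4, and at 0.691, 0.782, 0.781 and 0.599 FPKM in antagomiR-control replicates 1 to 4. Spry4 (chromosome 18, 38586268 to 38601268, minus strand) stood at 1.26, 1.91, 1.35 and 1.97 FPKM in antagomiR-122 replicates 1 to 4, and at 1.80, 1.56, 1.44 and 1.05 FPKM in antagomiR-control replicates 1 to 4. In both sprouty genes the groups overlapped over most of their range. The ratios of means were 0.971 for Spry2 and 1.11 for Spry4.

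By mean FPKM over the 8 mice, a level per length of transcript, the order was Errfi1 (422), Egfr (135), Dusp6 (17.4), Erbb3 (16.4), Lrig1 (6.34), Tgfa (5.36), Spry4 (1.54), Spry2 (0.703), Erbb2 (0.507) and Hbegf (0.238). Errfi1 was above Egfr in every mouse, by 2.00-fold to 4.44-fold. Neighbours whose ranges over the 8 mice overlapped were Dusp6 and Erbb3, Lrig1 and Tgfa, Spry2 and Erbb2, and Erbb2 and Hbegf. Spread within a group also differed. In controls the SD was 4.17% of the mean for Errfi1 and 3.99% for Erbb3, and with antagomiR-122 it was 8.58% and 21.1%.

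Downstream and around the receptors, 0 tested genes in 6 further lists, the ligand list included, passed limma's threshold, as in the fit over all genes. Among adaptors and the RAS to ERK cascade, 9 of 21 were higher and 12 lower, and their median log2 fold change was -0.03, beside 0.01 over all tested genes. Rps6ka1, the ERK-activated kinase RSK, averaged 8.63 ± 1.51 FPKM with antagomiR-122 and 5.58 ± 1.30 FPKM in controls (limma adjusted p = 0.452). Map2k2, which codes for the ERK kinase MEK, averaged 59.9 ± 8.43 FPKM and 51.4 ± 2.53 FPKM. Braf, a RAF kinase, averaged 3.90 ± 0.530 FPKM with antagomiR-122 and 4.59 ± 0.388 FPKM in controls. It was the only one of the 21 with groups apart, beside 4.52% of all tested genes, so nothing is read from it.

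In the PI3K, PLC, SRC and STAT branches, 8 of 16 genes were higher and 8 lower; their median was -0.0013. Stat5a, a transcription factor that also serves growth hormone, averaged 4.02 ± 0.380 FPKM with antagomiR-122 and 5.09 ± 0.318 FPKM in controls (SD, n = 4 each), with a limma adjusted p of 0.504. It was the only one of the 16 with groups apart, beside 4.52% of all tested genes. Prkca and Vav2 had log2 fold changes of -0.28 and -0.22 with overlapping groups. In ligand shedding and receptor trafficking, 13 of 20 were higher and 7 lower, with a median of 0.03, and 0 had groups apart. Stam, Rab5a and Hgs, which act in endosomes, had log2 fold changes of -0.24, 0.14 and 0.11. With each mouse left out in turn, the medians of the cascade, PI3K and trafficking lists stayed between -0.05 and 0.04, and the first of these was 0.01 without antagomiR-122 replicate 4.

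Other negative regulators of receptor tyrosine kinases were mostly lower, at 16 of 23 tested, with a median log2 fold change of -0.09, beside 0.01 over all tested genes. The median was -0.06 without antagomiR-122 replicate 1. The highest control in 13 of the 23 was antagomiR-control replicate 1. Without that control mouse the median was -0.06, with 14 of 23 lower, and without antagomiR-control replicate 4 it was -0.125. Groups did not overlap in 2 of the 23, both lower, beside 2.14% of all tested genes. Socs4, a SOCS protein that promotes EGFR degradation, averaged 5.80 ± 0.437 FPKM with antagomiR-122 and 7.34 ± 0.629 FPKM in controls (limma adjusted p = 0.486). Lrig2, a paralogue of Lrig1, averaged 1.59 ± 0.194 FPKM with antagomiR-122 and 2.28 ± 0.437 FPKM in controls (SD, n = 4 each; limma adjusted p = 0.570). Ptprj, a receptor phosphatase, averaged 9.60 ± 1.59 FPKM and 11.5 ± 1.30 FPKM with overlapping groups. The third LRIG gene, Lrig3, named for comparison after its values were seen, was at 1.69 FPKM with antagomiR-122 and 1.53 FPKM in controls.

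Transcripts that are known to rise after ERK activation were lower in 12 of 17 tested, with a median log2 fold change of -0.24, beside 0.01 over all tested genes. Groups did not overlap in 3 of the 17, all lower, beside 2.14% of all tested genes. The size of the median rests on single libraries: antagomiR-control replicate 1, the mouse with the high Dusp6, was the highest control in 11 of the 17. Without that mouse the median was -0.12, and without antagomiR-control replicate 3 it was -0.38, with 12 and 13 of 17 lower. Klf6, a zinc finger factor, averaged 3.61 ± 0.635 FPKM with antagomiR-122 and 6.40 ± 1.62 FPKM in controls (limma adjusted p = 0.376), Jun, an AP-1 subunit, averaged 6.66 ± 1.66 FPKM and 12.9 ± 4.62 FPKM (0.432), and Dusp8, a phosphatase of JNK and p38 kinases, averaged 1.11 ± 0.401 FPKM and 1.88 ± 0.200 FPKM (0.486; SD, n = 4 each). The lists were written with earlier results of these data known, in which Jun and Klf6 had been seen to be lower, so these counts are not independent of that knowledge. Srf is listed at 0 in all 8 libraries and 11 of the 28 were under the filter.

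**Figure D3:**
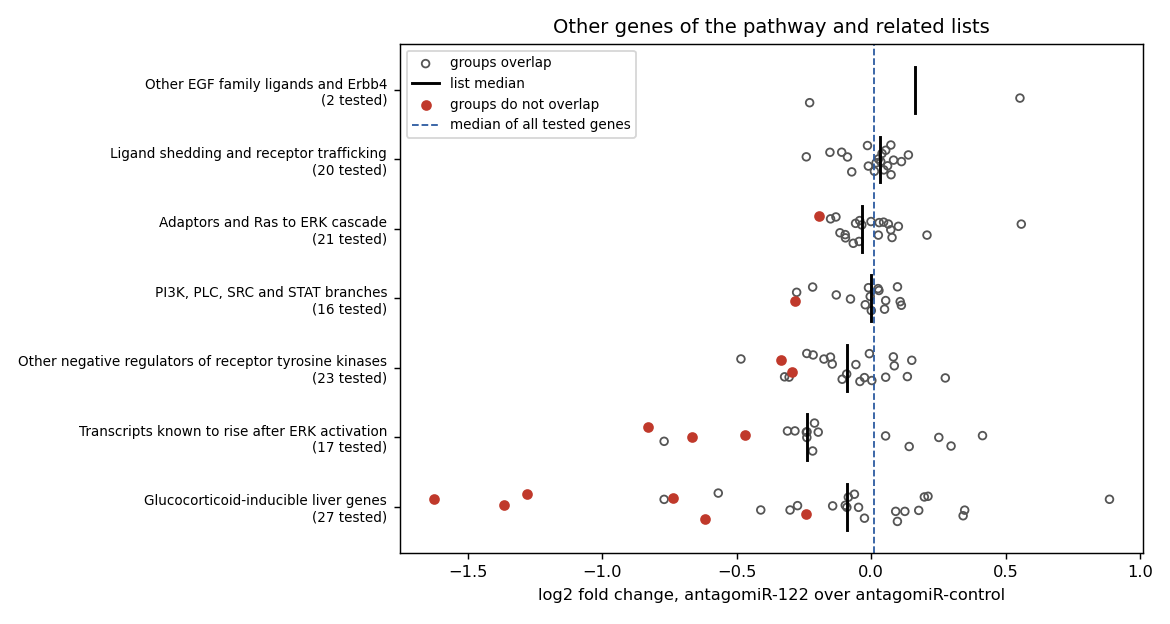
Log2 fold change (antagomiR-122 over antagomiR-control) of each tested gene in 7 lists, 1 point per gene with random vertical scatter; filled red points are genes whose groups did not overlap, black bars list medians and the dashed line the median of all tested genes (0.01). With all 8 mice the ERK-activated transcripts have the lowest median (-0.24), which is -0.12 without antagomiR-control replicate 1, and the cascade, PI3K and trafficking lists lie around 0.

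The 5 named transcripts whose values over the 8 mice were most like those of Errfi1 were Ccnl1, Git2, Tmem199, Pigk and Tmem150a. Likeness was the root mean square difference between the log2(FPKM + 1) values of a gene and those of Errfi1, each centred on its own mean over 8 mice. It was 0.109, 0.112, 0.117, 0.118 and 0.124 log2 units for these genes, against a median of 0.324 over all tested genes. Ccnl1, a cyclin that acts in RNA splicing, averaged 29.4 ± 2.05 FPKM with antagomiR-122 and 41.5 ± 5.48 FPKM in controls. Pigk, a subunit of the GPI transamidase, averaged 15.4 ± 0.545 FPKM with antagomiR-122 and 20.5 ± 1.00 FPKM in controls (SD, n = 4 each). All 5 are lower with antagomiR-122 with groups apart, which the measure favours, since Errfi1 itself differs between the groups.

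**Figure D4:**
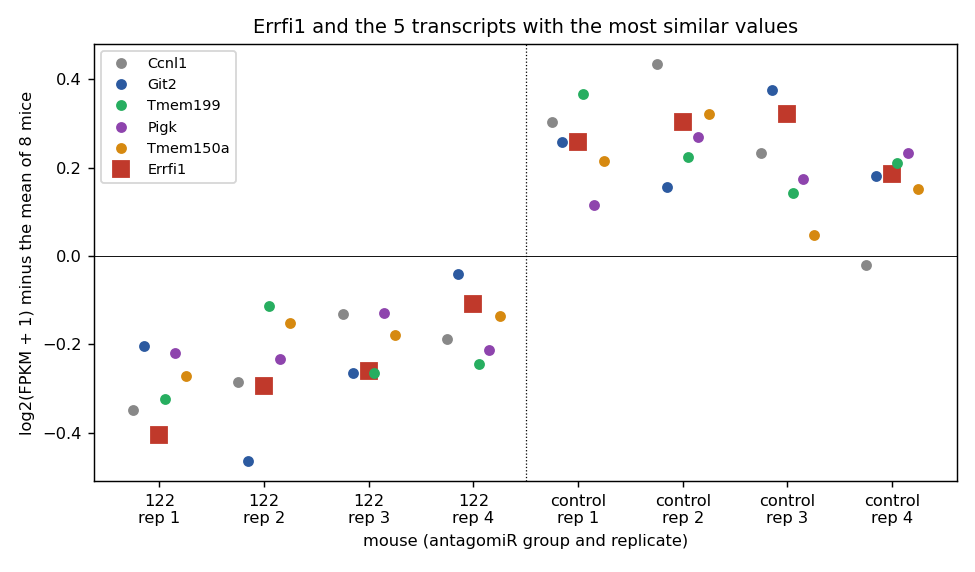
Log2(FPKM + 1) minus the mean over 8 mice for Errfi1 (large red squares) and the 5 most similar named transcripts (small points, offset sideways), in antagomiR-122 mice on the left and control mice on the right of the dotted line. All values with antagomiR-122 lie below 0, and all values in controls lie above 0 except Ccnl1 in antagomiR-control replicate 4.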

How the data were processed

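Liver RNA-seq of 8 mice was used, 4 per group, with groups and replicate numbers from the sample titles. Per the submitters' processing notes, the genome build was GRCm38 and the tools include TopHat2 2.0.13 along with Cufflinks 2.2.1, Cuffdiff, cutadapt 1.7.1 and bcl2fastq 2.15.0.4. Annotation release, strand setting and library scaling: not given in the sources used here. Deposited by the authors were FPKM per mouse and per group, a log2 fold change, a Cuffdiff test statistic (a score with no fixed range), and p-values and q-values. In the table of all genes the authors' fold change was treated as a score, because some entries are infinite. Of 43630 entries, 43629 had values, and every per-sample column was matched to a mouse.

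The 11131 genes averaging 1 FPKM or more over 8 libraries were fitted on log2(FPKM + 1) with R 4.3.3 and limma 3.58.1, two-sided, with a trended prior and robust estimation, and with Benjamini-Hochberg adjustment over all of them and a threshold of 0.05. This scale understates the change of low genes. FPKM are not counts and no count test was run. The scripts were tested on simulated data. The fit was repeated with pseudocount 0.1, no filter, a mean of at least 5 FPKM, rescaled libraries, limma without trend and robust, a replicate block, and each mouse left out.

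Relative depth came from low FPKM (under 0.3): with each library's own step, 67.5% of 4332 values were whole multiples (tolerance 0.1) of the smallest value of their gene, against 21.0% of 4976 with equal steps. In a library of median depth, 1 fragment on a 2-kb transcript is worth about 0.021 FPKM.

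The genes, lists and motifs were chosen with earlier results of these data known. Named from each list are the 3 genes with the smallest limma p and all with groups apart. The 5 genes most like Errfi1 were ranked among named genes, unnamed gene models being skipped. Promoter windows are from RefSeq, GRCm38.p6.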

Additional observations from a re-analysis of the deposited data

Results flagged for a closer look

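Of 76 groups of 4 mice examined, 3 held a mouse far from the other 3 by Dixon's test (gap over range above 0.829), where chance flags about 1 in 20. Tgfa was flagged in both groups, at 3.73 FPKM in antagomiR-122 replicate 3, against 5.33 to 5.44 FPKM in the other antagomiR-122 mice, and at 7.62 FPKM in antagomiR-control replicate 1, against 5.10 to 5.13 FPKM in the other controls. Jun was flagged in controls, at 19.7 FPKM in antagomiR-control replicate 1, against 9.99 to 11.5 FPKM in the other controls. That mouse also held the highest Dusp6 value, at 37.1 FPKM.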

How the results depend on the processing

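Of the 7 tested genes of the set, 6 kept the sign of the log2 fold change under every alternative run. Errfi1 ranged from -0.59 to -0.49, Erbb3 from 0.37 to 0.58, Lrig1 from -0.33 to -0.22 and Dusp6 from -0.69 to -0.17 over 14 alternatives, and Egfr changed sign (0.02) without antagomiR-control replicate 4. Spry4 could not be fitted at a mean of at least 5 FPKM. limma gave 0 genes past the threshold in all 14. The number of genes with groups apart was 503, and 315 at a mean of at least 5 FPKM, where fewer genes were tested. With 1 mouse left out it was 704 to 1035, where fewer mice make overlap rarer. With the replicate number as a block, the log2 fold change of Errfi1 stayed at -0.53 and 0 genes passed. The replicate numbers showed no consistent sign of pairing. Deviations of same-numbered mice correlated at 0.128, -0.238, -0.0611 and -0.184 across genes, and 1 of 4 antagomiR-122 mice correlated best with its own number. With 4 mice per group these correlations cannot show that the mice were unpaired. Leaving out each mouse for the list medians was chosen after seeing the data. Depth limits Hbegf, at 5 to 34 estimated fragments per library, and Spry2, at 25 to 74.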

Other observations

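Glucocorticoid-inducible liver genes were lower in 18 of 27 tested, with a median log2 fold change of -0.09, beside 0.01 over all tested genes. Errfi1 is itself of this kind but was not on the list and is not among the 27. The median was -0.17 without antagomiR-122 replicate 3 and -0.14 without antagomiR-122 replicate 4. Leaving out antagomiR-control replicate 1 gave -0.17, and leaving out antagomiR-control replicate 3 gave -0.06. None of the 27 passed limma's threshold (smallest adjusted p = 0.251). Groups did not overlap in 6 of the 27, all lower with antagomiR-122, against 2.14% of all tested genes. Igfbp1, Cdkn1a and Gadd45g were known to be lower when the list was written. Sgk1, a kinase that regulates ion transport, stood at 9.59, 6.99, 9.57 and 13.7 FPKM in antagomiR-122 replicates 1 to 4, and at 14.7, 22.7, 16.8 and 14.3 FPKM in antagomiR-control replicates 1 to 4, with a log2 fold change of -0.74 ± 0.19 (SE). Cebpd, a C/EBP transcription factor, averaged 4.01 ± 0.645 FPKM with antagomiR-122 and 6.77 ± 1.62 FPKM in controls, and Net1, an exchange factor of RhoA, averaged 21.5 ± 1.52 FPKM and 25.6 ± 1.71 FPKM (SD, n = 4 each). Igfbp1, Cdkn1a and Gadd45g had log2 fold changes of -1.63, -1.28 and -1.36. The remaining 9 tested members were higher. Of the list, Arrdc3 and Fkbp5 are named with their values in view. Arrdc3 stood at 58.4 FPKM with antagomiR-122 and 32.2 FPKM in controls, and Fkbp5, a standard glucocorticoid target, was at 25.0 FPKM and 26.8 FPKM.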
